A study of Mus musculus with 2 samples.

Results

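Myoblast fusion genes encode the proteins by which myoblasts, the mononucleated precursors of skeletal muscle, recognise each other, adhere and merge their membranes into multinucleated myotubes. The 10 genes examined were Mymk, Myof, Dysf, Cav3, Jam2, Jam3, Dock1, Cdh2, Bin1 and Cdon, taken by symbol. Each of the 10 was matched by exactly 1 probe set with that symbol in the annotation of the array, out of 21789 probe sets and 19938 genes that carried 1 symbol, and no probe set with several symbols held any of them.

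The measured cells were Rosa-CreER / MLL1 fl/fl myoblasts, grown from hind limb muscles of mice a few weeks old. They carry floxed alleles of Mll1 (Kmt2a), which encodes a histone H3 lysine 4 methyltransferase, and a CreER recombinase that is expressed from the broadly active Rosa26 locus and enters the nucleus only with 4-hydroxytamoxifen (4-OHT). The MLL1 KO culture received 500 nM 4-OHT in 0.01% EtOH for 7 days and then neither for 3 days, and the Control culture, of the same cell line and with the same alleles, received 0.01% EtOH for 7 days and then none for 3 days. RNA from 1 culture of each kind was hybridised to 1 Affymetrix MoGene 1.0 ST array. Deletion and exposure to 4-OHT cannot be told apart in this pair of arrays. All cells were kept in growth medium, so the values describe myoblasts before the switch to differentiation medium.

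The array has several probes along each transcript and gives 1 signal per probe set on a log2 scale after RMA, a procedure that subtracts background, equalises the distributions of the arrays and combines the probes. Each difference is the log2 signal in MLL1 KO minus that in Control, and folds are its size taken back to the linear scale (2-fold is a log2 difference of 1). With 1 array per condition there is no error, no test and no p-value for any difference, and precision is limited by having 1 array each. Signals of different probe sets depend on their probes, so only differences, and not levels, are set side by side between genes. Kmt2a itself had a log2 signal of 9.66 in MLL1 KO and 9.44 in Control, a value that does not check the deletion, since recombination removes only part of the gene. The myoblast marker Myod1 had 12.27 in MLL1 KO and 12.15 in Control, and Des, a muscle intermediate filament gene, had 11.49 in MLL1 KO and 11.58 in Control. Over all named probe sets the median log2 difference was -0.05, and the central 95% of differences ran between -0.56 and 0.77.

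Fusion proceeds in steps. Cadherins, immunoglobulin-type receptors and junctional adhesion molecules hold the cells together, a DOCK1 and RAC1 pathway rebuilds the actin cortex at the contact, and the muscle fusogens myomaker and myomixer then join the lipid bilayers, while ferlins, caveolin 3 and the curvature protein BIN1 shape, repair and fold the membrane of the growing myotube. Proliferating myoblasts already carry several of the adhesion proteins, whereas the fusogens belong to the differentiation programme that myogenic regulatory factors switch on.

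Of the 10 fusion genes, 6 had a higher signal in MLL1 KO and 4 a lower one, although the signs of Bin1, Dock1 and Cdh2, each within 0.1 of 0, turned under another scaling, and the differences lay between -0.22 for Jam3 and 1.14 for Mymk. The fusogen gene Mymk was the only member over 2-fold higher, and Dysf and Cdon were also over 1.5-fold higher, which makes 3 of 10, or 2 when both columns were quantile normalized again. Over all named probe sets 1.18% passed 2-fold upwards and 4.85% passed 1.5-fold upwards. Of all named genes, without regard to size, 41.6% were higher and 55.6% lower. No member was over 1.5-fold lower, against 2.03% of all named probe sets over 1.5-fold lower and 0.101% over 2-fold lower. The members were chosen with earlier results of these data known, so these counts are a description and no test. The median log2 difference of the 10 genes was 0.07, and that of all named genes, many of them weak in signal, was -0.05. Beside probe sets of like mean signal, in groups described below, 5 members lay above the median difference and 5 below it.

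**Figure D1:**
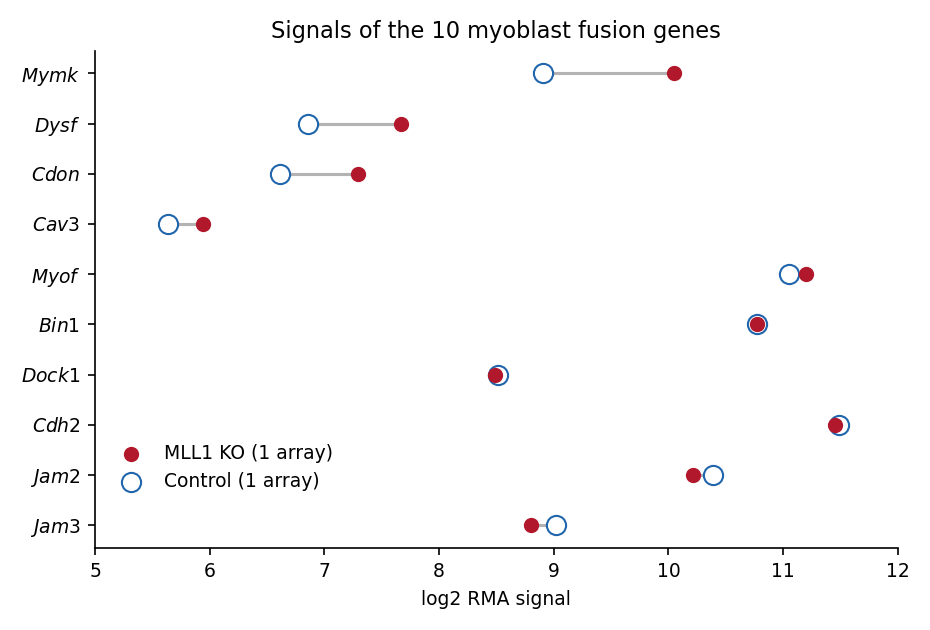
Log2 RMA signal (horizontal axis) of each of the 10 fusion genes in the MLL1 KO array (filled) and the Control array (open), 1 array each, ordered by the difference. Mymk shows the longest distance, at 10.05 in MLL1 KO and 8.91 in Control, followed by Dysf and Cdon, whereas the symbols of Bin1, Dock1 and Cdh2 nearly coincide. Signals of different genes are not to be compared with each other.

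Mymk encodes myomaker, a muscle-specific multipass membrane protein that both fusing cells need for mixing of the outer membrane leaflets. Its log2 signal was 10.05 in MLL1 KO and 8.91 in Control, a log2 difference of 1.14 or 2.21-fold. To set a difference beside probe sets of like brightness, the named probe sets were divided into 10 signal groups of equal size by mean signal. Of the 2179 probe sets in the signal group of Mymk, 10, or 0.459%, had a difference as high or higher, and the central 95% of that signal group ended at 0.68. Mymk was the only 1 of the 10 members outside the central 95% of its signal group. Mymx encodes myomixer, the microprotein that acts after myomaker to open the fusion pore. Its signal was 5.73 in MLL1 KO and 5.85 in Control, a difference of -0.12 where the median of its signal group was -0.11. The files hold no detection call, so whether Mymx was above background is not known here.

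**Figure D2:**
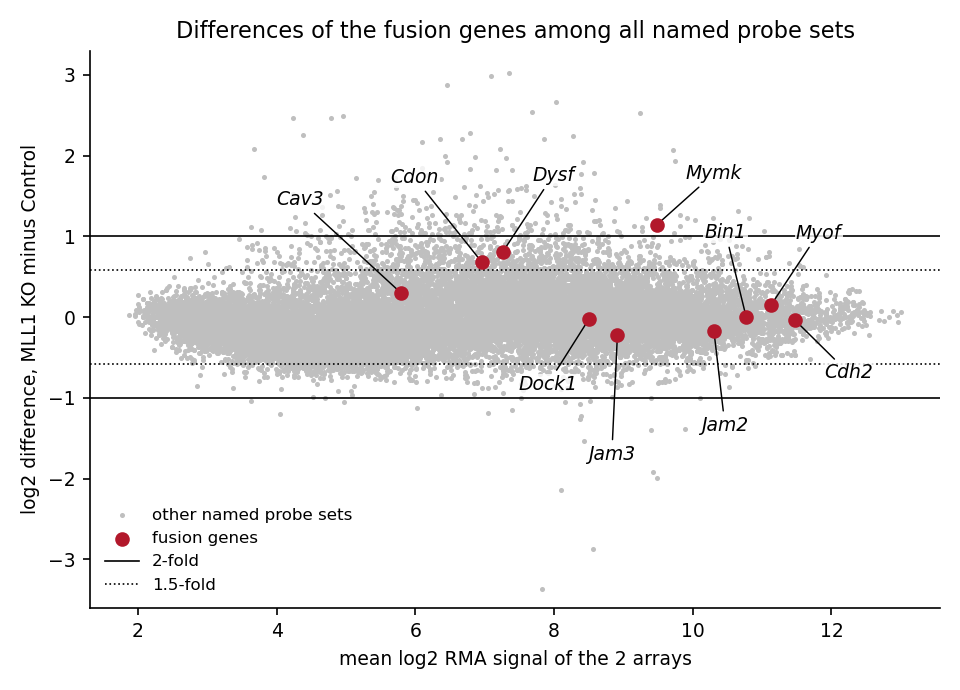
Log2 difference of MLL1 KO minus Control (vertical axis) against the mean log2 RMA signal of both arrays (horizontal axis), with all named probe sets in grey and the fusion genes in red. Mymk lies above the 2-fold line at 1.14, Dysf and Cdon lie between the 1.5-fold and 2-fold lines, and the other 7 lie within the bulk of the points.

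The ferlins are large membrane-anchored proteins with repeated C2 domains, which bind calcium and phospholipids and promote vesicle fusion. Dysf encodes dysferlin, which reseals torn sarcolemma and is lost in limb-girdle muscular dystrophy, and it rises as myotubes form. Its log2 signal was 7.67 in MLL1 KO and 6.86 in Control, a difference of 0.81 or 1.76-fold. In its signal group 3.63% of probe sets had a difference as high or higher. Myof encodes myoferlin, the paralog that mouse myoblasts need to fuse with existing myotubes. It had 11.20 in MLL1 KO and 11.05 in Control, a difference of 0.15 or 1.11-fold, and 26.6% of its signal group lay as high or higher. The log2 difference of Dysf exceeded that of Myof by 0.66. Fer1l5, a ferlin that also takes part in fusion of cultured myoblasts, had weak signals of 3.82 in MLL1 KO and 4.06 in Control.

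Cav3 encodes caveolin 3, the muscle caveolin that forms caveolae, takes part in T-tubule formation and binds dysferlin. Its log2 signal was 5.94 in MLL1 KO and 5.64 in Control, a difference of 0.30 or 1.23-fold, and 18.9% of its signal group lay as high or higher. The median difference of that signal group was -0.11. Cavin4, which encodes the muscle-specific cavin of the same caveolae, had 8.99 in MLL1 KO and 7.94 in Control and was 2.07-fold higher. The widely expressed caveolar genes differed little, with Cav1 at 10.08 in MLL1 KO and 10.02 in Control and Cavin1 at 9.97 in MLL1 KO and 10.13 in Control. Bin1 encodes amphiphysin 2, a BAR domain protein that bends membranes into T-tubules. Its log2 signal was 10.77 in both arrays and its difference was 0.00. Bin3, a smaller BAR domain gene, had 9.42 in MLL1 KO and 8.60 in Control and was 1.77-fold higher, so that the log2 difference of Bin1 was lower by 0.82 than that of Bin3.

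RefSeq promoter windows on GRCm38.p6, from 250 bases before to 50 bases after a start site, were used for 5 of the 10 members. Member windows on 1 chromosome were left out of the search, whereas the shares over all windows include that chromosome. Those of Dysf and Cav3 are shown because dysferlin and caveolin 3 are partners in muscle and because Dysf has a window at each of 2 start sites, whereas the array gives it 1 signal. Capitals mark E-boxes, the CANNTG sites to which myogenic regulatory factors such as MYOD1 and myogenin can bind. The windows are, on the plus strand of chromosome 6, chr6:84008348-84008647 and chr6:84019136-84019435 for Dysf and chr6:112459255-112459554 for Cav3.
Dysf, first window: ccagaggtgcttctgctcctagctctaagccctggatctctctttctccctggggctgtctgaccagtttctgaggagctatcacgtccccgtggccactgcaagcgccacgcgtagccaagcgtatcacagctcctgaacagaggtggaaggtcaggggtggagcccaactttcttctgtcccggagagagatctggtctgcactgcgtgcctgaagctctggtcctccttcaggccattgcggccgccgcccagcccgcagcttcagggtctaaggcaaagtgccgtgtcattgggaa
Dysf, second window: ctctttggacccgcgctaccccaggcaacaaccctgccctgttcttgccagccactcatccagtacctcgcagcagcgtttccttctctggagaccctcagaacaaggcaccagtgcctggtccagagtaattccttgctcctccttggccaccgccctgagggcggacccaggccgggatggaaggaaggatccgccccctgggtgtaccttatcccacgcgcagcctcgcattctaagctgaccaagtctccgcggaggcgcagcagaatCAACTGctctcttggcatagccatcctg
Cav3: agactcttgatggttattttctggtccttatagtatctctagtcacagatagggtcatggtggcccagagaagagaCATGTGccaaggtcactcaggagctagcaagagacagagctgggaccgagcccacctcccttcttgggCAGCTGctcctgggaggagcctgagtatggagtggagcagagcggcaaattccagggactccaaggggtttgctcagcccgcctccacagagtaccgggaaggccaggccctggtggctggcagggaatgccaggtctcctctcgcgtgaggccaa

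The first Dysf window held no E-box and the second held 1, CAACTG, with its first base at position 23, counted from 1 at the start site. The Cav3 window held 2, CATGTG and CAGCTG, with first bases at -174 and -106 from the start site. Of the other windows used, that of Dock1 on chromosome 7 held 1 E-box at -36. Those of Cdon on chromosome 9 and Myof on chromosome 19 held none. CANNTG reads the same on both strands, and 72.3% of the 32851 promoter windows in the table held it at least once, so a match is common. The form CAGCTG, which is counted among the E-boxes too, occurred in 16.3% of all windows and among the member windows used only in that of Cav3. The MEF2 consensus was searched on both strands and found in none of the 6 member windows used, against 3.19% of all windows. These matches describe letters and are not binding data. Dysf and Cdon were both over 1.5-fold higher, and of their 3 windows 1 held an E-box.

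The adhesion receptors among the members were close to 0 or slightly lower, apart from Cdon. Cdh2 encodes N-cadherin, which joins myoblasts by homophilic contacts. It had 11.45 in MLL1 KO and 11.49 in Control, a difference of -0.03, and 41.2% of its signal group lay as low or lower. Cdh15, which encodes M-cadherin of satellite cells and myoblasts, had 9.32 in MLL1 KO and 9.43 in Control. Both of these stayed within 0.12 of 0 on the log2 scale. Cdh4, another classical cadherin gene, had weak signals of 5.42 in MLL1 KO and 5.77 in Control, a difference of -0.36. In the signal group of Cdh4 the median difference was -0.11 and 21.2% of probe sets lay as low or lower.

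Jam2 and Jam3 encode the junctional adhesion molecules JAM-B and JAM-C, which bind each other across cell contacts and are needed for fusion of fast muscle precursors in zebrafish. Jam2 had 10.22 in MLL1 KO and 10.39 in Control, a difference of -0.18. Jam3 had 8.80 in MLL1 KO and 9.02 in Control, a difference of -0.22 and the lowest of the 10 genes. Both partners were therefore lower by similar amounts, 1.13-fold and 1.17-fold, and their log2 differences were 0.05 apart. In their signal groups 19.8% and 16.9% of probe sets were as low or lower, so neither stood out among probe sets of like signal. F11r, the gene of JAM-A, had the weak signals of 4.74 in MLL1 KO and 4.45 in Control.

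Cdon encodes an immunoglobulin superfamily receptor that gathers with cadherins at contacts between myoblasts and signals through p38 kinases to promote differentiation and fusion. Its log2 signal was 7.30 in MLL1 KO and 6.61 in Control, a difference of 0.69 or 1.61-fold, and 7.58% of its signal group lay as high or higher. Boc, the related receptor that forms complexes with CDON, had 8.86 in MLL1 KO and 8.54 in Control, a smaller difference of 0.32. Neo1, the gene of the netrin receptor neogenin that also binds CDON, had 10.27 in MLL1 KO and 10.30 in Control. Of 13 measured partners and signal proteins of CDON, 5 were higher and 8 were lower, none by over 1.5-fold, and their median difference was -0.03, or 0.03 with all differences centred. The member farthest from 0 was Shh, the hedgehog ligand, at 5.03 in MLL1 KO and 5.56 in Control.

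Dock1 encodes a guanine nucleotide exchange factor that activates RAC1 and is required for myoblast fusion in mice, as its counterpart is in flies. It had 8.49 in MLL1 KO and 8.51 in Control, a difference of -0.02, and 38.9% of its signal group lay as low or lower. Its paralog Dock5 had 7.71 in MLL1 KO and 7.64 in Control. Elmo2, which encodes a scaffold of the DOCK1 complex, had 9.03 in MLL1 KO and 8.75 in Control, and Rac1 had 11.66 in MLL1 KO and 11.50 in Control. In the list of 22 measured genes of this pathway, which also holds the phosphatidylserine receptors and actin regulators, 16 were higher, 6 were lower and the median difference was 0.12. None passed 1.5-fold, and the gene farthest from 0 was Elmo3, at 5.77 in MLL1 KO and 5.28 in Control. Of all named genes 41.6% were higher and 55.6% lower. The receptors Adgrb1 and Adgrb3, which signal to DOCK1 through ELMO proteins, had weak signals of 5.26 and 3.31 in MLL1 KO and 5.51 and 3.52 in Control.

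Beyond the 10 members, 90 of 92 genes of the wider lists were measured. These lists hold genes of fusion as well as relatives and pathway partners of the members, not all of which have a known part in it. They were chosen with earlier results of these data known, so the counts below describe the lists and are no test. Probe sets of 1 gene were averaged. Of the 90, 8 passed 1.5-fold upwards, 5 of them also 2-fold, and none passed 1.5-fold downwards. Among all named genes, counted in the same way, 4.86% passed 1.5-fold upwards and 2.01% downwards, and 1.16% passed 2-fold upwards and 0.11% downwards. Without regard to size 48 of the 90 were higher and 42 lower, and their median difference was 0.02. Of all named genes 41.6% were higher and 55.6% lower.

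Of the 8 genes that passed 1.5-fold, 4 encode proteins of the cell surface. Of 21 other adhesion genes, 4 were over 1.5-fold higher, 9 were higher and 12 lower in all, and the median difference was -0.12, or 0.17 among those with a signal over 7. Tmem182, which encodes a muscle membrane protein that restrains fusion in mice, had 8.83 in MLL1 KO and 7.20 in Control and was 3.10-fold higher, the largest fold among these genes and the members. Itga3 and Itga4 encode integrin chains that pair with integrin β1. Itga3 had 8.21 in MLL1 KO and 7.13 in Control and was 2.11-fold higher. Itga4, whose product binds VCAM1, had 7.22 in MLL1 KO and 6.19 in Control and was 2.04-fold higher. Their β1 partner Itgb1 did not share this pattern, with 10.52 in MLL1 KO and 10.64 in Control, and Vcam1 had 9.39 in MLL1 KO and 9.85 in Control. Cxcr4, a chemokine receptor of migrating muscle precursors, had 9.16 in MLL1 KO and 8.54 in Control and was 1.54-fold higher. The shares of their signal groups as high or higher were 0.321% for Tmem182, 1.61% for Itga3, 3.03% for Itga4 and 3.81% for Cxcr4. Itga4 and Cxcr4 lay inside the central 95% of their signal groups.

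Of 23 measured genes of membrane repair and remodelling, only Cavin4 and Bin3 were over 1.5-fold higher. In all 10 were higher and 13 lower, and the median difference was -0.03, which turned to 0.02 under centring. Anxa6 had a pair of probe sets with unlike values, at 11.29 in MLL1 KO and 11.44 in Control for one and at 5.00 in MLL1 KO and 5.64 in Control for the other, which alone was 1.56-fold lower. Trim72, the gene of the muscle repair protein MG53, had 6.34 in MLL1 KO and 5.97 in Control.

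Of 10 genes of secreted signals, a cytokine receptor and transcription factors of fusion, 8 were higher and 2 lower, and the median difference was 0.37. Of these 10, 6 had a signal over 7 in the higher array, with a median difference of 0.445, and the rest were weak. Tgfb1, whose product TGFβ1 restrains fusion, had 9.77 in MLL1 KO and 8.33 in Control and was 2.70-fold higher. Sox4, which encodes a SOX family transcription factor, had 8.94 in MLL1 KO and 8.33 in Control and was 1.53-fold higher. In their signal groups 0.184% of probe sets lay as high or higher for Tgfb1 and 6.70% for Sox4. Sox4 lay inside the central 95% of its signal group. Genes known to promote fusion, such as Mymk, and genes known to restrain it, such as Tmem182 and Tgfb1, were thus both among the higher ones.

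**Figure D3:**
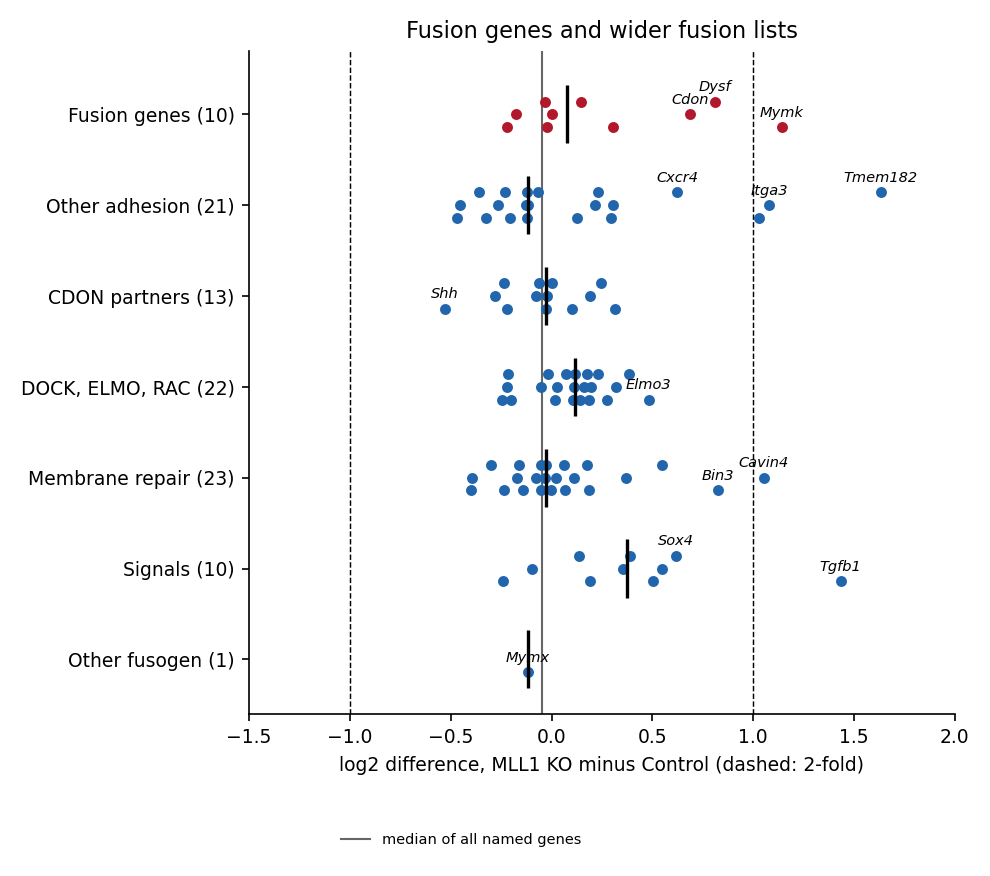
Log2 difference of MLL1 KO minus Control (horizontal axis) of each gene, as the mean of its probe sets, in the 10 fusion genes (red) and the wider fusion lists (blue), with the number of measured genes in brackets. Short black bars are list medians, from -0.12 for the other adhesion genes to 0.37 for the signals, the grey line is the median of all named genes at -0.05, and dashed lines mark 2-fold. No gene lies left of the lower 2-fold line.

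Markers of differentiating muscle and of the cell cycle moved in the same arrays, and their part in the differences of Mymk, Dysf and Cdon was not tested. Of 24 measured markers of differentiating muscle, 21 were higher and 3 were lower in MLL1 KO, 12 of them passed 1.5-fold upwards, and the median difference was 0.60. Their summed linear signal was 15745 in MLL1 KO and 9814 in Control. Among all named genes 41.6% were higher and 55.6% lower, and 4.86% passed 1.5-fold upwards. Mef2c, a transcription factor of differentiating muscle, was 2.71-fold higher, and Myh1, Myl1 and Tnni1, which encode myosin chains and slow troponin I, were 2.36-fold, 2.34-fold and 2.33-fold higher. Myog, the gene of myogenin, was 1.56-fold higher. The 3 lower markers were Cdkn1c, Tnni2 and Ckm, with differences of -0.35, -0.28 and -0.11. Of 19 measured S-phase genes, 18 were lower and 1 was higher, with a median difference of -0.47 and a summed linear signal of 14592 in MLL1 KO and 19752 in Control. Lig1, the replicative DNA ligase, was 1.74-fold lower. In a bulk sample, more cells of a kind and more RNA per cell cannot be told apart, so a larger share of differentiating cells and a higher Mymk level in each cell would give the same signal.

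Of 10 myoblast markers, 9 had a log2 signal over 7 in the higher array. Only Myf5 was over 1.5-fold lower, at 6.14 in MLL1 KO and 9.51 in Control. Signals in MLL1 KO lay below those in Control for 7 of the 10 markers and above them for 3. Their log2 differences had a median of -0.12. After Myf5 the lowest difference was that of Itga7, at 9.66 in MLL1 KO and 10.06 in Control. In the signal group of Itga7, 4.31% of probe sets lay as low or lower. Among genes that mark other cell types, Pdgfra of fibroblasts had 5.09 in MLL1 KO and 5.15 in Control, Pecam1 of endothelium had 5.03 in MLL1 KO and 5.08 in Control, and Ptprc of leukocytes had 3.69 in MLL1 KO and 3.83 in Control. Col3a1, a fibroblast collagen gene, had 7.67 in MLL1 KO and 8.12 in Control. Eng of endothelium had 7.19 in MLL1 KO and 6.91 in Control. Both of these passed a log2 signal of 7 in the higher array. Of 9 measured fibroblast markers 8 were lower and 1 was higher, of 8 endothelial markers 6 were lower and 1 was higher, and of 7 immune markers 6 were lower and 1 was higher, with summed linear signals of 514, 306 and 276 in MLL1 KO and 636, 307 and 187 in Control. Of all named genes 55.6% were lower, and in the signal groups of weak probe sets, where most of these markers lay, the median difference was below 0. The higher immune marker was Cd68, which also serves in lysosomes of other cells, at 7.47 in MLL1 KO and 6.08 in Control.

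**Figure D4:**
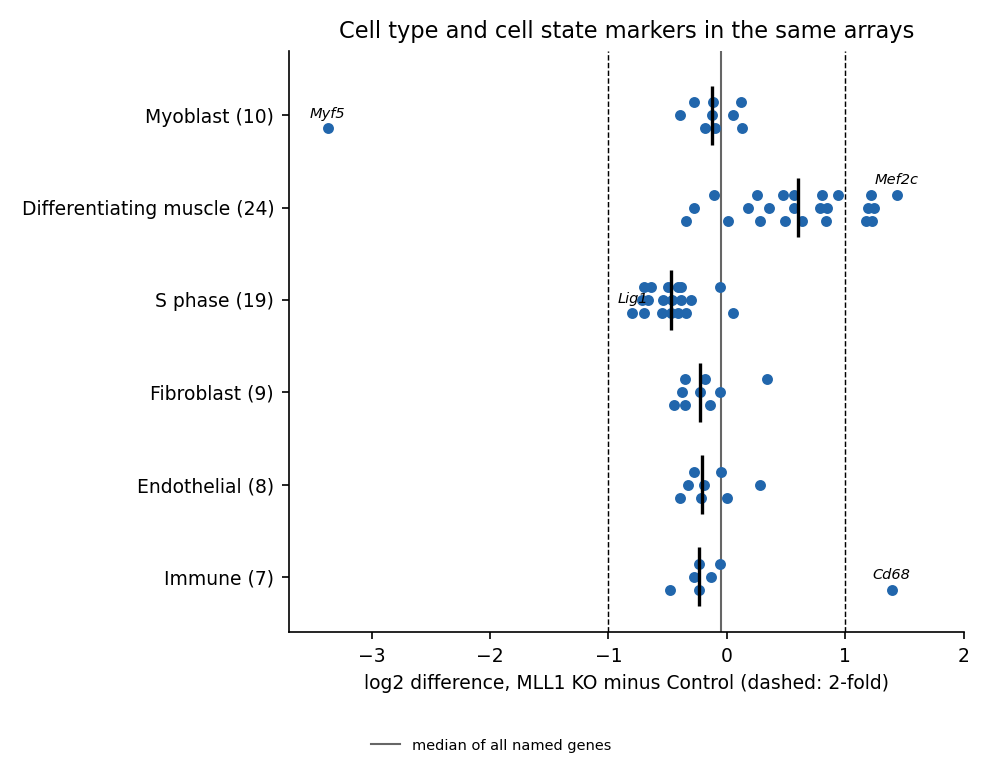
Log2 difference of MLL1 KO minus Control (horizontal axis) of each marker gene, as the mean of its probe sets, by list, with the number measured in brackets. Short black bars are list medians, at 0.60 for differentiating muscle and -0.47 for S phase, the grey line is the median of all named genes at -0.05, and dashed lines mark 2-fold.

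Within the classes of members, Dysf had the larger difference of the ferlins and Cdon the larger one of the CDON and BOC pair, while the JAM pair had like values. Mymk kept a difference between 1.11 and 1.19 under the scalings that were tried, and Dysf one between 0.71 and 0.86, whereas Cdon, at 0.69 as deposited, was at 0.56 after that quantile normalization.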

How the data were processed

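Affymetrix MoGene 1.0 ST signals of 35557 probe sets were analysed for 1 MLL1 KO and 1 Control array. Scanner data had been RMA normalized in Bioconductor (version not stated in the labels or methods), and the authors deposited log2 values. The labels give a washout of 3 days and the methods a shorter one. Symbols came from the platform annotation, which gave 1 symbol to 21789 probe sets, several to 1621 and none to 12147, and only those with 1 symbol were used. No column was left unused. Differences are MLL1 KO minus Control, and genes of the wider lists are means of their probe sets. Each member was placed within 1 of 10 groups of equal size by mean signal. Cut-offs were 2-fold, from the methods, and 1.5-fold.

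The members and lists were chosen with earlier results of these data known. All members were named. Of each wider list, genes past 1.5-fold or the one farthest from 0 were named, and of marker lists up to 4. Myog and the lower markers of differentiating muscle were named besides. Paralogs and partners of members (Cdh15, Cdh4, Boc, Neo1, Dock5, Elmo2, Rac1, Adgrb1, Adgrb3, Fer1l5, F11r, Cav1, Cavin1, Itgb1, Vcam1, Anxa6, Trim72) and markers of cell identity were named after their values were seen. The scalings were checked only on simulated data, with planted differences and little noise added to the Control signals. That check tests the code and not how the scalings act on this pair of arrays. Alternatives were centring, quantile normalization, removal of a lowess trend with span 0.3, other cut-offs and a signal filter at 7. Promoter sequences are from RefSeq (GRCm38.p6). Python 3.11.15, numpy 2.4.6, pandas 2.3.3, statsmodels 0.14.6 and matplotlib 3.10.9 were used.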

Additional observations from a re-analysis of the deposited data

How the results depend on the processing

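With 1 array per condition no replicate could be left out, and no paired analysis was possible because each condition has 1 array. The count of members over 2-fold higher was 1 as deposited, 3 at a 1.5-fold cut-off and 0 at a 3-fold cut-off, and it was 1 under centring, quantile normalization, removal of the lowess trend and a signal filter at 7. The count of members over 2-fold lower was 0 in each of these settings. The median difference of the members was between 0.07 and 0.13 under the scalings and 0.00 among the 9 members with a signal over 7. At 1.5-fold the count of higher members was 3 under centring and with the trend removed and 2 after quantile normalization, where Cdon was at 0.56. The sign of the difference was the same under all scalings for 7 members and turned for the other 3, Bin1, Dock1 and Cdh2, which lay within 0.1 of 0. The largest change of a member's difference by a scaling was 0.12. Centring moved the median of all named probe sets by 0.05. The median of the other adhesion genes was -0.12 and turned to 0.17 among those with a signal over 7. The medians of the CDON partners and of the membrane genes, at -0.03 each, turned to 0.03 and 0.02 under centring. With no detection call in the files, it is not known whether the weak signals of Cav3 and Mymx were above background.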
